A study of Homo sapiens with 8 samples.

Results

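Antisense genes, most of them noncoding, are named for the gene on the opposite strand, such as IFNG-AS1 for IFNG. In RNA-seq of LP-1 cells, rows whose symbol ends in -AS or -AS with a number and whose mean over the 8 libraries was at least 1 RPKM (read density per kilobase, corrected for library size) were taken as members. This gave 144 antisense genes out of 63129 rows in the table and out of 888 antisense-named rows, of which 346 were at 0 in every library. Each was set beside its sense partner, the row whose symbol is the part before -AS, which was present for 143 of them. The rule used the level alone, so the levels are a description. Because the mean includes the treated libraries, a response to compound could decide the membership of genes near 1 RPKM.

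LP-1 is an established human multiple myeloma cell line, which stands for 1 patient's tumor grown in culture. The 4 groups of 2 libraries were LP-1 cells given 2.5 μM SGC-CBP30, an inhibitor of the bromodomains of the co-activators CBP and EP300, for 6 h, LP-1 cells given 250 nM CPI203, an inhibitor of the BET family of bromodomain proteins, for 6 h, and a pair of 6 h DMSO libraries for each compound. The DMSO libraries were matched to each compound by the prefix of the library names in the labels (SL for SGC-CBP30, CM for CPI203), and each compound was compared only with its own DMSO libraries. Because the doses and the library series differ, a difference between the compounds cannot be told apart from a difference between these conditions of treatment.

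Transcription often starts in both directions from one promoter, and a divergent RNA made upstream of a coding gene is a common kind of antisense gene. Others start within or beyond the 3′ end of the sense gene and run across it. Many of these RNAs are scarce and unstable, and for a few, such as IFNG-AS1 in T cells, a role in the control of the neighboring gene is known. Bromodomain proteins bind acetylated histones at promoters and enhancers, and BET proteins bring in factors that release paused RNA polymerase.

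All plasma cell markers were present, between 10.9 and 334 RPKM, while markers of B cells, T cells, monocytes and fibroblasts were under 0.5 RPKM in every library. The files give no counts, and the depth estimated from steps in low values was between 26000000 and 50100000 reads, which is between 26 and 50.1 reads per kilobase at 1 RPKM. The SD of the log2 difference between replicates was between 0.253 and 0.456 over the antisense genes tested. It was between 0.091 and 0.115 over all genes at 10 RPKM or more. In bulk RNA, fewer cells expressing a gene and less RNA per cell cannot be told apart.

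The antisense genes were mostly scarce. Their median mean level was 3.63 RPKM, against 17.2 RPKM for the sense partners. There were 43 antisense genes under 2 RPKM, 71 from 2 to under 10 RPKM and 30 at 10 RPKM or more. In the 125 pairs whose partner was at 1 RPKM or more, the median ratio of antisense to sense level was 0.165. The antisense gene was above its partner in 42 of the 143 pairs, and in 24 of those the partner was itself at 1 RPKM or more. Just inside the threshold were KLHL7-AS1 at 1.03 RPKM, SLC25A5-AS1 at 1.03 RPKM and TOB1-AS1 at 1.02 RPKM, and just outside were CSTF3-AS1 at 0.975 RPKM, RASSF8-AS1 at 0.933 RPKM and ATP6V0E2-AS1 at 0.930 RPKM. In 29 antisense genes at least 1 group mean was under 1 RPKM.

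GENCODE release 29 matched 141 of the 144 and gave the biotype antisense to 94, lincRNA to 20 and processed transcript to 19, while 3 were listed as protein coding. In 62 pairs the genes lay head to head, with 5′ ends within 1000 bases. In 21 pairs the antisense gene ran across the start of the sense gene, in 27 the pair overlapped tail to tail, in 17 the antisense gene lay inside the sense gene, and in 12 the sense gene lay inside the antisense gene. Exons of the pair overlapped in 101 pairs, by a median of 11.6% of the antisense exon bases among these, and in 7 pairs by 50% or more. Strand handling during read assignment is not given in the sources used here, so reads from these shared bases cannot be told apart between the genes of a pair.

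RefSeq promoter windows of 300 bases (250 before and 50 after the start, build GRCh38.p14) were found for 101 of the 144. Their median GC content was 65.7%, against 58.7% over all 35116 windows, and their median number of CpG dinucleotides was 27, against 14. Searched on both strands, the GC box GGGCGG was in 67.3% of the antisense windows and in 45.0% of all windows. The ETS motif CCGGAAG was in 18.8% and 10.3%, the E-box CACGTG in 10.9% and 7.26%, the CCAAT box in 34.7% and 34.6%, and the cyclic AMP response element TGACGTCA in 2.97% and 1.85%. The TATA box TATAAA was in 0.99% of the antisense windows and 11.5% of all windows, and the interferon-stimulated response element in 1.98% and 3.57%. In 67 of the 101 windows an exon of a coding gene lay inside the same 300 bases, so these shares also describe promoters next to coding genes. The antisense genes had to reach 1 RPKM, while all windows were taken at any level. The part of this filter in the differences was not tested. Matches of different motifs may overlap.

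The windows of 5 antisense genes with large responses and no coding exon in the window are shown to let the sequence at their starts be compared. IFNG-AS1 (chr12:67989197-67989496, plus strand) and CTBP1-AS2 (chr4:1249190-1249489, plus strand) fell with CPI203, IPO9-AS1 (chr1:201829510-201829809, minus strand) and ASB16-AS1 (chr17:44186668-44186967, minus strand) rose with it, and BZRAP1-AS1 (chr17:58325200-58325499, plus strand) fell with both compounds. Capitals mark the 7 motifs above, on either strand.
IFNG-AS1: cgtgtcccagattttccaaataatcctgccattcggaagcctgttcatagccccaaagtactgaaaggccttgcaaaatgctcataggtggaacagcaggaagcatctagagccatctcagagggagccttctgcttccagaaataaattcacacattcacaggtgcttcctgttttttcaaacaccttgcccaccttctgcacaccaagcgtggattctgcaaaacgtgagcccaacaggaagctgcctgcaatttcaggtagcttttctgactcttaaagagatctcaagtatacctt
CTBP1-AS2: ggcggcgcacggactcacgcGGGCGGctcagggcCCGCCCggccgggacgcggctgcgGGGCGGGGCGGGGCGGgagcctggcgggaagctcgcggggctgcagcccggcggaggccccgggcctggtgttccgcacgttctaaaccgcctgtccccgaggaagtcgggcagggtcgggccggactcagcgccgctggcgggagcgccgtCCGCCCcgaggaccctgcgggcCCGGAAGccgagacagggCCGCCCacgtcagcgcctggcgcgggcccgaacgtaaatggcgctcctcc
IPO9-AS1: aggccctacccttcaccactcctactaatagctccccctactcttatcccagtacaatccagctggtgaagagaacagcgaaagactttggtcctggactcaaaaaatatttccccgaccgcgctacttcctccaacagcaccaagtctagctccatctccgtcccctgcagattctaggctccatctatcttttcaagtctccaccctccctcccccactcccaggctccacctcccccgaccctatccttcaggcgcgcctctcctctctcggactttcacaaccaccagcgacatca
ASB16-AS1: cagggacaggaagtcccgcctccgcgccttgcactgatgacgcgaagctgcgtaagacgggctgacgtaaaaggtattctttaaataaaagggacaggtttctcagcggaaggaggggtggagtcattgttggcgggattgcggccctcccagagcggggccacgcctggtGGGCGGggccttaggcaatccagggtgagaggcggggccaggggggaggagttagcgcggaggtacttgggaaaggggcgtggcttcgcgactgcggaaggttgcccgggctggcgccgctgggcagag
BZRAP1-AS1: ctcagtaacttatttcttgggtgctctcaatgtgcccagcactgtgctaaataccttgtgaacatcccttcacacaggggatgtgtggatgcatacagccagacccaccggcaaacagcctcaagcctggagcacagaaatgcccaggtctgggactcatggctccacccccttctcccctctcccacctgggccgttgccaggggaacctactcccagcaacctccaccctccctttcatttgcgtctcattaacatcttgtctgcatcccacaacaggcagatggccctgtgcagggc

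Both windows of genes that fell strongly with CPI203 can be set side by side. The IFNG-AS1 window had a GC content of 46.3%, 4 CpG dinucleotides and none of the 7 motifs. The CTBP1-AS2 window had a GC content of 79.3%, 46 CpG dinucleotides, 7 GC boxes and 1 ETS motif. The ASB16-AS1 window held 1 GC box, and those of IPO9-AS1 and BZRAP1-AS1 held none of the motifs. A match is a run of letters and was not tested as a binding site.

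The most abundant antisense gene was C17orf76-AS1 (LRRC75A-AS1 in GENCODE), a host of small nucleolar RNAs, at a mean of 668 RPKM and between 610 and 731 RPKM in the 8 libraries. It was not called with either compound. The next were NCBP2-AS2 at 40.0 RPKM, which GENCODE lists as protein coding, SOCS2-AS1 at 35.4 RPKM, PITPNA-AS1 at 35.3 RPKM, RAB30-AS1 at 33.2 RPKM and OIP5-AS1, also known as Cyrano, at 32.4 RPKM. None of the 6 passed the test at 1.5-fold with either compound. SOCS2-AS1 differed between the DMSO pairs themselves, at 22.3 and 24.9 RPKM in the SL libraries and 53.0 and 52.0 RPKM in the CM libraries, and its partner SOCS2, a suppressor of cytokine signaling, did too, at 127 and 129 RPKM against 206 and 210 RPKM. PITPNA-AS1 shared 69.9% of its exon bases with PITPNA, so its level is uncertain.

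With CPI203, more antisense genes fell than rose. A gene was called when its adjusted p was under 0.05 and its change at least 1.5-fold. Of 143 antisense genes tested 62 were called (43.4%), where 27.8% of all 14732 genes tested were. There were 43 that fell (30.1%, against 14.4% of all genes) and 19 that rose (13.3%, against 13.4%). The median log2 fold change was -0.17 over the antisense genes and -0.01 over all genes tested. In 70 antisense genes both CPI203 libraries lay below both DMSO libraries (41.7% of all genes tested did), in 39 both lay above (39.2%), and in 34 they overlapped.

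**Figure D1:**
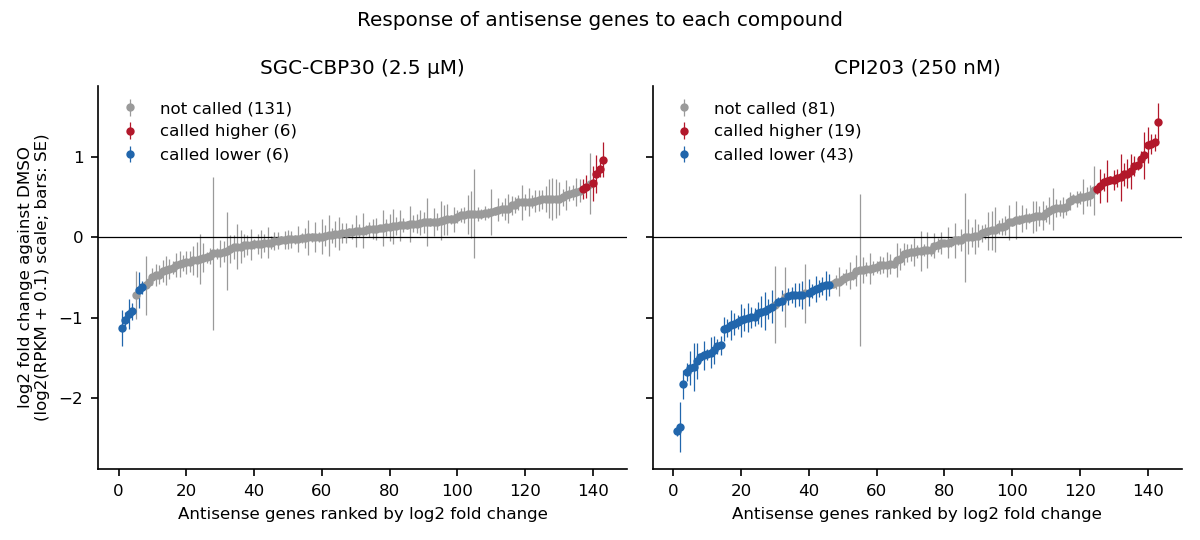
Ranked log2 fold changes of the 143 antisense genes tested against DMSO (y axis, log2(RPKM + 0.1) scale, bars are standard errors), with SGC-CBP30 on the left and CPI203 on the right. With CPI203 43 genes were called lower and 19 higher, and with SGC-CBP30 6 and 6.

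The share that fell with CPI203 was above that of all genes in each range of level. It was 34.9% of the 43 antisense genes from 1 to under 2 RPKM, against 20.1% of all genes in that range. From 2 to under 10 RPKM it was 28.2% of 71, against 16.5%. At 10 RPKM or more it was 27.6% of the 29 tested, against 12.1%. Of the 124 sense partners tested 16 rose and 16 fell (12.9% each).

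IFNG-AS1 (chr12:68383224-68628466 in the deposited hg19 positions), which spans the interferon gamma gene, had the deepest fall with CPI203. It was at 45.6 and 45.1 RPKM in the DMSO libraries and at 8.35 and 8.52 RPKM with CPI203, which is 18.6% of the DMSO mean (log2 fold change -2.41 ± 0.06 SE, adjusted p = 2.46e-09). With SGC-CBP30 it was at 22.6 and 23.1 RPKM against 32.0 and 35.3 RPKM in its DMSO libraries, 68.0% of their mean, which passed the adjusted p (9.47e-05) but not the 1.5-fold limit. Treated and DMSO libraries did not overlap in either experiment. IFNG itself was at most 0.154 RPKM in every library, so the antisense RNA was present while its named partner was near 0.

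CTBP1-AS2 (chr4:1243087-1282079, hg19), head to head with the co-repressor gene CTBP1, was at 20.9 and 21.3 RPKM in DMSO and 7.57 and 7.32 RPKM with CPI203 (log2 fold change -1.49 ± 0.06 SE, adjusted p = 3.17e-08). PXN-AS1 (chr12:120639093-120650941, hg19), tail to tail with the paxillin gene, fell from 18.0 and 18.6 RPKM to 7.76 and 6.46 RPKM (-1.36 ± 0.09, adjusted p = 9.38e-07). ST3GAL6-AS1 (chr3:98433173-98451495, hg19) fell from 19.6 and 21.8 RPKM to 7.52 and 7.45 RPKM (-1.45 ± 0.07, adjusted p = 1.30e-07). The SL DMSO mean was 0.571 times the CM DMSO mean for ST3GAL6-AS1, 1.36 times for CTBP1-AS2 and 0.996 times for PXN-AS1. In these 3 genes both treated libraries lay below both DMSO libraries, and with SGC-CBP30 none of them passed the test at 1.5-fold. The log2 fold change with CPI203 was -0.32 for CTBP1 and -0.02 for PXN, neither past 1.5-fold, and ST3GAL6, a sialyltransferase gene, fell with its antisense gene (-0.91, adjusted p = 1.61e-07), which with all 4 DMSO libraries as controls was -0.56 with an adjusted p of 0.0653.

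**Figure D2:**
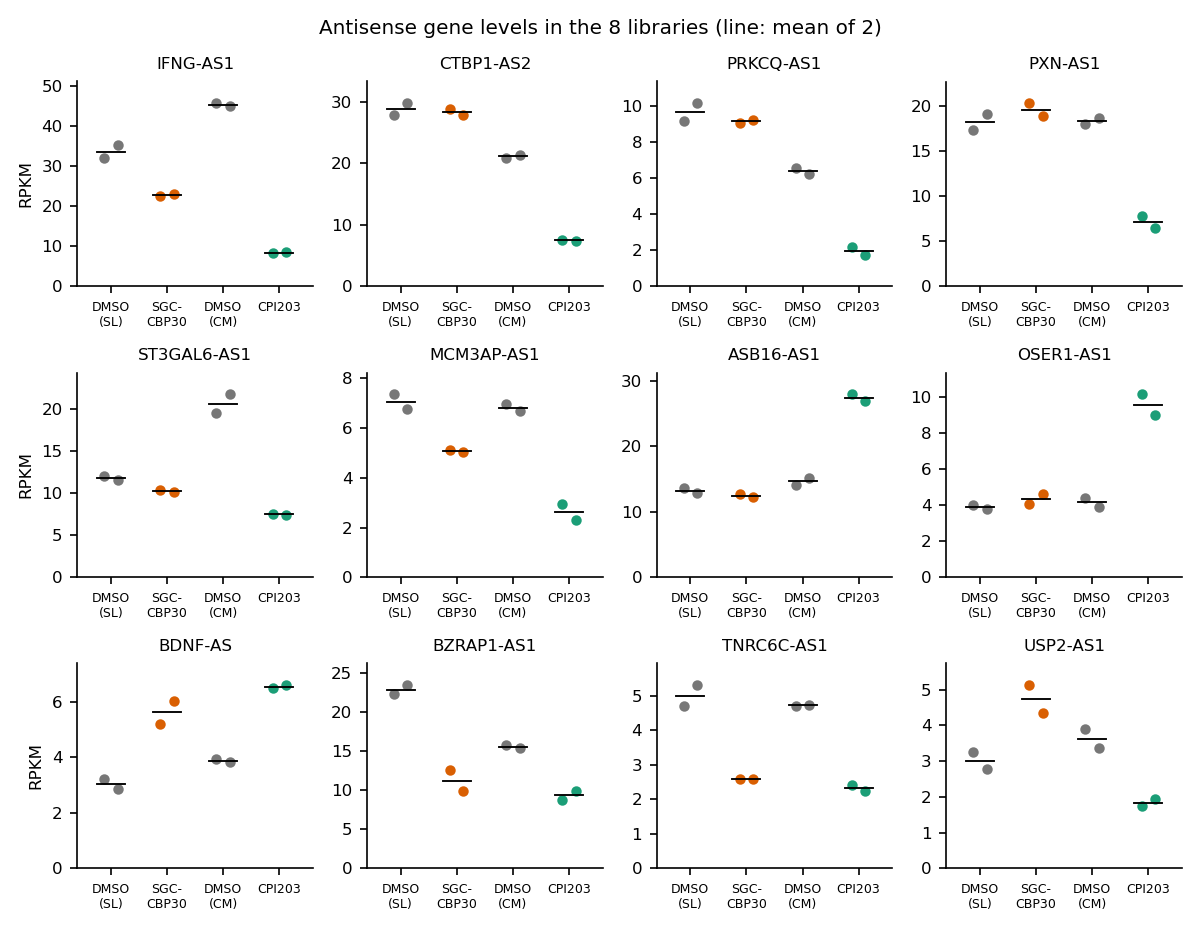
Level of 12 antisense genes in each library (y axis, RPKM from 0; points are single libraries, lines the mean of 2), in the DMSO libraries of the SL series, SGC-CBP30, the DMSO libraries of the CM series and CPI203. IFNG-AS1 fell to between 8.35 and 8.52 RPKM with CPI203, ASB16-AS1 rose to between 26.9 and 28.0 RPKM, and BDNF-AS was higher and TNRC6C-AS1 lower with both compounds.

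PRKCQ-AS1, head to head with the gene of protein kinase C theta, was at 6.59 and 6.24 RPKM in DMSO and at 2.18 and 1.73 RPKM with CPI203 (log2 fold change -1.67 ± 0.11 SE, adjusted p = 1.08e-06). MCM3AP-AS1, tail to tail with the gene of an mRNA export factor, fell from 6.97 and 6.68 RPKM to 2.97 and 2.32 RPKM (-1.34 ± 0.12, adjusted p = 5.82e-06). KTN1-AS1, which crosses the start of the kinectin gene, fell from 2.88 and 3.02 RPKM to 0.646 and 0.891 RPKM (-1.83 ± 0.18, adjusted p = 1.32e-05). The log2 fold change with CPI203 was -0.20 for PRKCQ, -0.18 for MCM3AP and 0.27 for KTN1, none of them past 1.5-fold.

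The other antisense genes with the deepest falls were at low level. MID1IP1-AS1, inside a gene of lipid synthesis control, was at 2.61 and 1.97 RPKM in DMSO and at 0.216 and 0.578 RPKM with CPI203 (-2.36 ± 0.31, adjusted p = 9.99e-05). MAFG-AS1, head to head with the gene of a small Maf transcription factor, went from 1.26 and 1.4 RPKM to 0.365 and 0.361 RPKM (-1.63 ± 0.22, adjusted p = 0.0001). NPPA-AS1, opposite the atrial natriuretic peptide gene, went from 1.34 and 0.922 RPKM to 0.204 and 0.418 RPKM (-1.61 ± 0.30, adjusted p = 0.000914). At these levels the added 0.1 RPKM makes the log2 fold change smaller than the ratio of the RPKM values.

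Among the 19 that rose, ASB16-AS1 (chr17:42253340-42264085, hg19) was the most abundant named one, at 14.1 and 15.3 RPKM in DMSO and 28.0 and 26.9 RPKM with CPI203 (log2 fold change 0.90 ± 0.06 SE, adjusted p = 1.28e-06). ZBED5-AS1 rose from 6.81 and 6.87 RPKM to 13.9 and 13.3 RPKM (0.98 ± 0.09, adjusted p = 9.13e-06). OSER1-AS1, head to head with an oxidative stress response gene, rose from 4.41 and 3.87 RPKM to 10.1 and 8.96 RPKM (1.18 ± 0.11, adjusted p = 8.36e-06).

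INTS6-AS1, beside a gene of the Integrator complex, went from 0.872 and 0.655 RPKM to 2.18 and 2.28 RPKM (log2 fold change 1.44 ± 0.23 SE, adjusted p = 0.000323). It reached the mean of 1 RPKM only through the CPI203 group, the other 3 group means being between 0.764 and 0.874 RPKM, so its choice as a member already favored a rise. A1BG-AS1 rose from 2.36 and 2.51 RPKM to 5.61 and 5.56 RPKM (1.17 ± 0.12, adjusted p = 1.88e-05). IPO9-AS1, head to head with the importin 9 gene, rose from 0.890 and 1.24 RPKM to 2.35 and 2.59 RPKM (1.15 ± 0.22, adjusted p = 0.00115). Its mean over the 8 libraries was 1.27 RPKM and its CPI203 values were its highest, so its choice also favored a rise. NDUFA6-AS1 rose from 0.713 and 1.39 RPKM to 2.19 and 2.09 RPKM (1.02 ± 0.29, adjusted p = 0.0109), and without the lower DMSO library this was 0.59 with an adjusted p of 0.0841, so the call rests on that library. All 7 risers named here had both CPI203 libraries above both DMSO libraries, which their choice required.

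The position of the antisense gene in its pair went with different shares called. Of the 17 antisense genes that lie inside their sense gene 11 fell with CPI203 (64.7%) and 1 rose, with a median log2 fold change of -0.89. Of 61 head to head 15 fell and 11 rose (24.6% and 18.0%), with a median of -0.03. Of 27 tail to tail 9 fell and 4 rose, of 21 across the sense start 4 fell and 2 rose, and of 12 that enclose the sense gene 3 fell and none rose. The difference between these classes was not tested. Positions came from the outer bounds of each gene, so a gene counted as inside may start near an inner start of its sense gene. Among the 11, the start windows of VPS9D1-AS1, DYNLL1-AS1, MFI2-AS1, MID1IP1-AS1, MCF2L-AS1, NDUFB2-AS1 and CACNA1C-AS1 held an exon of the sense gene. Those of EPB41L4A-AS1 and CACNA1C-AS2 held no coding exon, and FOXN3-AS1 and USP30-AS1 had no window. The median SE of the log2 fold change also differed, at 0.19 for genes inside the sense gene and 0.14 for those head to head. Where the antisense gene lies inside the sense gene, reads from sense introns and the antisense RNA share the same bases. Of the 11 that fell, MID1IP1-AS1 and MCF2L-AS1 had a sense partner that fell as well, with a log2 fold change of -1.09 for MID1IP1 and -1.04 for MCF2L. The other partners tested were not called, with DYNLL1 at 0.39, VPS9D1 at 0.28, NDUFB2 at 0.02, FOXN3 at -0.01, USP30 at -0.13 and MFI2 at -0.17. CACNA1C, which codes for a calcium channel subunit, was at most 0.101 RPKM. It holds CACNA1C-AS1 and CACNA1C-AS2, which are both among the 11 and are not independent. MCF2L-AS1, EPB41L4A-AS1, and the partners not called with their antisense genes were named here after their values were seen.

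Other noncoding classes picked by symbol gave the following counts with CPI203. Over all genes tested 14.4% fell and 13.4% rose with CPI203, and 3.79% and 3.47% with SGC-CBP30. The lists are short and were not tested as sets. Of 46 LINC genes 12 fell and 4 rose with CPI203 (26.1% and 8.70%). Of 15 small nucleolar RNA host genes 5 fell and none rose, of 7 microRNA host genes 3 rose and none fell, and of 4 intronic transcripts 3 fell. With SGC-CBP30 the LINC genes had 4 lower and 2 higher, the small nucleolar RNA host genes none in either direction (6 had an adjusted p under 0.05 without the fold limit), the microRNA host genes 1 higher, and the intronic transcripts 1 in each direction.

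**Figure D3:**
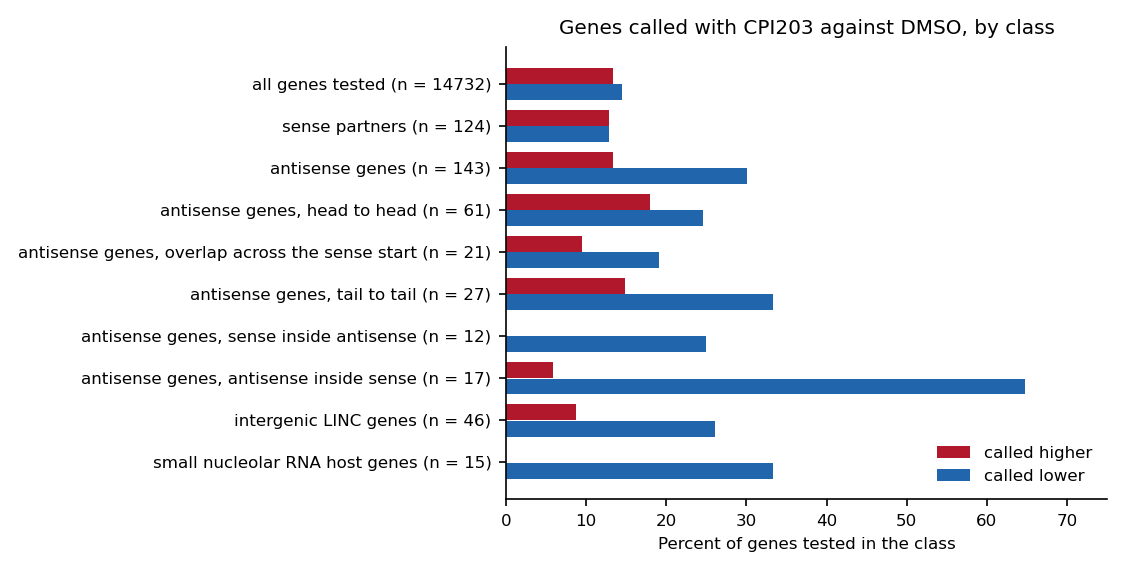
Percent of genes called higher and lower with CPI203 (x axis) in each class, with the number tested in brackets. Among antisense genes 30.1% fell, against 14.4% of all genes tested and 12.9% of the sense partners, and among those inside the sense gene 64.7% fell.

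With SGC-CBP30 fewer antisense genes passed, and their share was near that of all genes. There were 12 called of 143 (8.39%), against 7.26% of all genes tested, with 6 higher (4.20%, against 3.47%) and 6 lower (4.20%, against 3.79%). The split between higher and lower depended on scaling: after median scaling 3 were higher and 7 lower, and after quantile normalization 3 and 8, and RAB11B-AS1, USP2-AS1 and A1BG-AS1 no longer passed after either. With all 4 DMSO libraries as controls 5 were called, 2 higher and 3 lower, and of the 12 only BDNF-AS, BZRAP1-AS1 and TNRC6C-AS1 kept the call. With an adjusted p under 0.05 alone there were 49 of the 143, beside 5945 of all 14732 genes tested, which is a lower share. The median log2 fold change was 0.08, beside 0.07 over all genes tested. Both SGC-CBP30 libraries lay above both DMSO libraries for 54 antisense genes (45.9% of all genes did) and below for 33 (27.2%).

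BDNF-AS (chr11:27528384-27719721, hg19), tail to tail with the gene of brain-derived neurotrophic factor, was at 3.23 and 2.87 RPKM in DMSO and at 5.19 and 6.05 RPKM with SGC-CBP30 (log2 fold change 0.86 ± 0.11 SE, adjusted p = 0.000294). With CPI203 it was at 6.5 and 6.59 RPKM against 3.94 and 3.82 RPKM (0.74 ± 0.11, adjusted p = 0.000178). The 4 treated libraries were above all 4 DMSO libraries, and BDNF was at most 0.088 RPKM. IPO9-AS1 rose from 0.564 and 0.432 RPKM to 1.04 and 1.09 RPKM with SGC-CBP30 (0.97 ± 0.22, adjusted p = 0.00719), and A1BG-AS1 from 2.46 and 2.02 RPKM to 3.46 and 3.44 RPKM (0.60 ± 0.12, adjusted p = 0.00385). Of these IPO9-AS1 had DMSO levels in the CM libraries as high as 1.24 RPKM, above its SGC-CBP30 values, and A1BG-AS1 had 0.47 without DMSO replicate 2, below 1.5-fold.

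BZRAP1-AS1 (chr17:56402810-56493127, hg19), opposite the gene of a protein associated with the mitochondrial translocator protein, was at 22.2 and 23.4 RPKM in DMSO and at 12.6 and 9.82 RPKM with SGC-CBP30 (-1.03 ± 0.11, adjusted p = 0.000108). TNRC6C-AS1, opposite a gene of microRNA silencing, was at 4.70 and 5.30 RPKM in DMSO and at 2.59 RPKM in both treated libraries (-0.92 ± 0.11, adjusted p = 0.000215). CACNA1C-AS1 fell from 2.55 and 2.15 RPKM to 1.21 and 0.85 RPKM (-1.13 ± 0.23, adjusted p = 0.00367). Its mean over all libraries was 1.25 RPKM and its SL DMSO values were its highest, so its choice as a member favored a fall. CACNA1C-AS2 fell from 3.19 and 3.03 RPKM to 1.57 and 1.54 RPKM (-0.96 ± 0.19, adjusted p = 0.00376), and both lie inside the same gene, so they are not independent. With all 4 DMSO libraries as controls CACNA1C-AS1 had -0.71 (adjusted p = 0.172) and CACNA1C-AS2 -0.66 (adjusted p = 0.112), and their levels in the SL DMSO libraries were 1.86 and 1.53 times those in the CM DMSO libraries. All 4 fell with CPI203 as well, with log2 fold changes of -0.73 for BZRAP1-AS1, -0.99 for TNRC6C-AS1, -1.54 for CACNA1C-AS1 and -1.43 for CACNA1C-AS2.

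Apart from USP2-AS1, 4 calls with SGC-CBP30 remain, and each was lost without some single library. RAB11B-AS1 was at 3.56 RPKM in both DMSO libraries and at 5.80 and 5.68 RPKM with the compound (0.67 ± 0.22, adjusted p = 0.035). LENG8-AS1 was at 2.83 and 2.95 RPKM and at 1.58 and 2.05 RPKM (-0.65 ± 0.22, adjusted p = 0.0418). RUSC1-AS1 was at 9.22 and 10.0 RPKM and at 6.19 and 6.22 RPKM (-0.62 ± 0.08, adjusted p = 0.000476). Without any 1 of the 4 libraries of the experiment the adjusted p of RAB11B-AS1 was between 0.109 and 0.116 and that of LENG8-AS1 between 0.057 and 0.219, and RUSC1-AS1 had a log2 fold change of -0.56 without DMSO replicate 2. With all 4 DMSO libraries as controls RUSC1-AS1 had -0.24 (adjusted p = 0.532) and LENG8-AS1 -0.23 (adjusted p = 0.658), and RUSC1-AS1 was at 5.91 and 5.33 RPKM in the CM DMSO libraries, below its SGC-CBP30 values. ZRANB2-AS2, at 1.18 and 0.743 RPKM in DMSO and 1.55 and 1.86 RPKM with SGC-CBP30 (0.79 ± 0.24, adjusted p = 0.025), had adjusted p of 0.163 without DMSO replicate 2, 0.0554 without SGC-CBP30 replicate 1 and 0.151 without SGC-CBP30 replicate 2.

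Pairs were counted by which of their genes were called. Of 124 pairs with both genes tested, 14 had both called with CPI203, 38 the antisense gene alone, 18 the sense gene alone and 54 neither. In these pairs 41.9% of the antisense genes and 25.8% of the partners were called with CPI203, and 7.26% and 8.87% with SGC-CBP30. Whether both were called more or less often than these shares alone would give was not tested. Both rose in 2 pairs (OSER1-AS1 and KLHL7-AS1) and both fell in 6 (MID1IP1-AS1, ST3GAL6-AS1, FBXL19-AS1, MCF2L-AS1, USP2-AS1 and USP3-AS1), of which FBXL19-AS1 and USP3-AS1 were named after their values were seen. KLHL7-AS1 had a mean of 1.03 RPKM with its highest values, 1.48 and 1.25 RPKM, under CPI203, so its choice favored a rise. With SGC-CBP30 2 pairs had both called, A1BG-AS1 with A1BG higher and TNRC6C-AS1 with TNRC6C lower, 7 the antisense gene alone, 9 the sense gene alone and 106 neither. Both partners lost the call with all 4 DMSO libraries as controls, A1BG at 0.53 (adjusted p = 0.164) and TNRC6C at -0.47 (adjusted p = 0.108). With a pseudocount of 1 they were at 0.57 and -0.40, under 1.5-fold. A1BG-AS1 was under 1.5-fold in both settings, at 0.54 and 0.46. Across the 124 pairs the log2 fold changes of antisense and sense gene had a Pearson r of 0.322 and a Spearman rho of 0.373 with SGC-CBP30, and 0.157 and 0.150 with CPI203. Genes of a pair share a library, a promoter region or bases, and genes are not independent replicates, so these are descriptions.

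**Figure D4:**
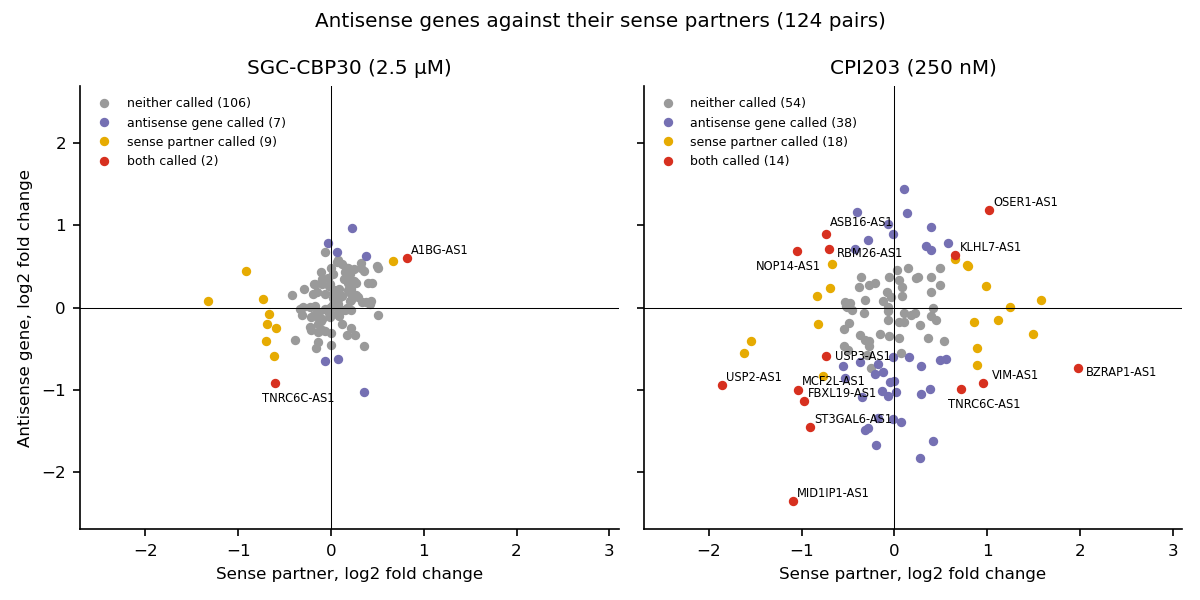
Log2 fold change of the antisense gene (y axis) against that of its sense partner (x axis) for 124 pairs, with SGC-CBP30 on the left and CPI203 on the right; colors give which gene of the pair was called, and pairs with both called are named by the antisense gene. With CPI203 8 of the 14 named pairs lie in the quadrants of equal sign and 6 in those of opposite sign.

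In 6 of the 124 pairs the genes were called in opposite directions with CPI203, and in none with SGC-CBP30. Taken singly, 16 antisense genes of these pairs rose and 36 fell with CPI203, and 16 partners rose and 16 fell. The SGC-CBP30 counts were 5 and 4 antisense genes, and 2 and 9 partners. Whether opposite directions were more or less frequent than these counts alone would give was not tested. With a pseudocount of 1, VIM-AS1 (-0.58), RBM26-AS1 (0.54) and TNRC6C (0.52) were under 1.5-fold, which leaves 3 of the 6 pairs. TNRC6C was also under 1.5-fold (0.58) with all 4 DMSO libraries as controls. BZRAP1-AS1 fell from 15.8 and 15.3 RPKM to 8.75 and 9.91 RPKM while BZRAP1 rose from 1.75 and 1.58 RPKM to 7.08 and 6.62 RPKM (log2 fold change 1.98 ± 0.16 SE, adjusted p = 3.10e-06). The ratio of antisense to sense level went from 9.03 and 9.71 to 1.24 and 1.5. VIM-AS1 fell from 2.02 and 1.98 RPKM to 1.13 and 0.896 RPKM while VIM, the vimentin gene, rose from 353 and 336 RPKM to 680 and 659 RPKM (0.96 ± 0.04, adjusted p = 4.54e-08). TNRC6C-AS1 fell from 4.70 and 4.73 RPKM to 2.40 and 2.24 RPKM while TNRC6C rose from 1.83 and 1.66 RPKM to 2.71 and 3.18 RPKM (0.72 ± 0.17, adjusted p = 0.00476), a direction opposite to that of TNRC6C with SGC-CBP30 (-0.61 ± 0.17, adjusted p = 0.0204). That fall of TNRC6C had an adjusted p of 0.118 without DMSO replicate 1 and 0.139 without SGC-CBP30 replicate 1.

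In the other 3 pairs the antisense gene rose and the sense gene fell. ASB16, at 8.05 and 7.62 RPKM in DMSO, was at 4.66 and 4.64 RPKM with CPI203 (-0.74 ± 0.07, adjusted p = 1.08e-05), and the ratio of ASB16-AS1 to ASB16 went from 1.75 and 2.00 to 5.99 and 5.80. NOP14-AS1 rose from 4.84 and 4.92 RPKM to 7.69 and 8.19 RPKM (0.69 ± 0.11, adjusted p = 0.000435), while NOP14, a gene of ribosome assembly, fell from 44.5 and 43.9 RPKM to 20.5 and 22.2 RPKM (-1.04 ± 0.05, adjusted p = 1.32e-07). RBM26-AS1 rose from 2.05 and 2.11 RPKM to 3.69 and 3.28 RPKM (0.72 ± 0.13, adjusted p = 0.000812) while RBM26, which codes for an RNA-binding protein, fell from 22.6 and 24.1 RPKM to 14.9 and 13.7 RPKM (-0.71 ± 0.06, adjusted p = 3.80e-06). The shared exon bases in these 6 pairs were between 4.51% and 32.7% of the antisense exon bases, and the part of read sharing in these values was not tested.

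Taken per library, the ratio of antisense to sense level was lower with CPI203 in 56 of 124 pairs without overlap between treated and DMSO libraries, higher in 37, and overlapping in 31. With SGC-CBP30 these were 27, 43 and 54. The same count was not made over other gene pairs, so these are descriptions. Among single genes, treated and DMSO libraries overlapped for 2823 of the 14732 tested with CPI203 and for 3962 with SGC-CBP30. The exact permutation test of 2 against 2 libraries cannot go below a two-sided p of 0.333, so no test of a single ratio was made. Some named partners changed while their antisense gene was not called: KDM4A, a histone demethylase gene, rose with CPI203 (0.85 ± 0.06, adjusted p = 1.65e-06) while KDM4A-AS1 had -0.18, and ZNRD1, a gene of an RNA polymerase I subunit, fell (-0.82 ± 0.04, adjusted p = 2.18e-07) while ZNRD1-AS1 had -0.20. Others in which neither was called with CPI203 were ZEB1-AS1 at -0.15, EIF3J-AS1 at -0.34, PSMD5-AS1 at 0.37 and OIP5-AS1 at 0.19.

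The responses to the compounds differed for 50 of the 143 antisense genes (35.0%, against 24.5% of all genes tested), by the test of the SGC-CBP30 effect minus the CPI203 effect. In 39 of these the SGC-CBP30 effect was the higher (27.3%, against 14.8%) and in 11 the lower (7.69%, against 9.68%). Called with both compounds were 9 (3.71% of all genes tested were), 7 of them in the same direction (3.18%). These 7 were IPO9-AS1, BDNF-AS, A1BG-AS1, BZRAP1-AS1, TNRC6C-AS1, CACNA1C-AS1 and CACNA1C-AS2, of which BDNF-AS, BZRAP1-AS1 and TNRC6C-AS1 kept the call for SGC-CBP30 with all 4 DMSO libraries as controls. Of the 53 called with CPI203 alone, the difference had an adjusted p under 0.05 in 42. The same count over all genes was not made.

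USP2-AS1 and ZRANB2-AS2 were called in opposite directions. USP2-AS1 (chr11:119252487-119397374, hg19), head to head with a deubiquitinase gene, was at 3.26 and 2.76 RPKM in DMSO and 5.11 and 4.33 RPKM with SGC-CBP30 (0.63 ± 0.14, adjusted p = 0.00639), and at 3.88 and 3.35 RPKM in DMSO and 1.73 and 1.93 RPKM with CPI203 (-0.94 ± 0.14, adjusted p = 0.000229). The difference between the effects was 1.57 (adjusted p = 0.000146). USP2 fell with CPI203, from 1.96 and 2.56 RPKM to 0.550 and 0.541 RPKM (-1.86 ± 0.18, adjusted p = 1.26e-05), and was not called with SGC-CBP30 (0.38). ZRANB2-AS2 was at 1.52 and 1.82 RPKM in DMSO and 0.918 and 0.766 RPKM with CPI203 (-0.91 ± 0.24, adjusted p = 0.00718), and the difference was 1.70 (adjusted p = 0.00224). Its SL DMSO mean was 0.575 times its CM DMSO mean. Its SGC-CBP30 values were near those of the CM DMSO libraries. With all 4 DMSO libraries as controls ZRANB2-AS2 had 0.41 with SGC-CBP30 (adjusted p = 0.399) and -0.53 with CPI203 (adjusted p = 0.189). With a pseudocount of 1 these were 0.47 and -0.54, under 1.5-fold. With all 4 DMSO libraries USP2-AS1 had 0.50 with SGC-CBP30 (adjusted p = 0.0596). Under SGC-CBP30 the rise of USP2-AS1 was 0.52 without DMSO replicate 2 (adjusted p = 0.0501) and 0.52 without SGC-CBP30 replicate 1 (adjusted p = 0.0584), and the fall of ZRANB2-AS2 with CPI203 had an adjusted p of 0.0511 without DMSO replicate 2.

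**Figure D5:**
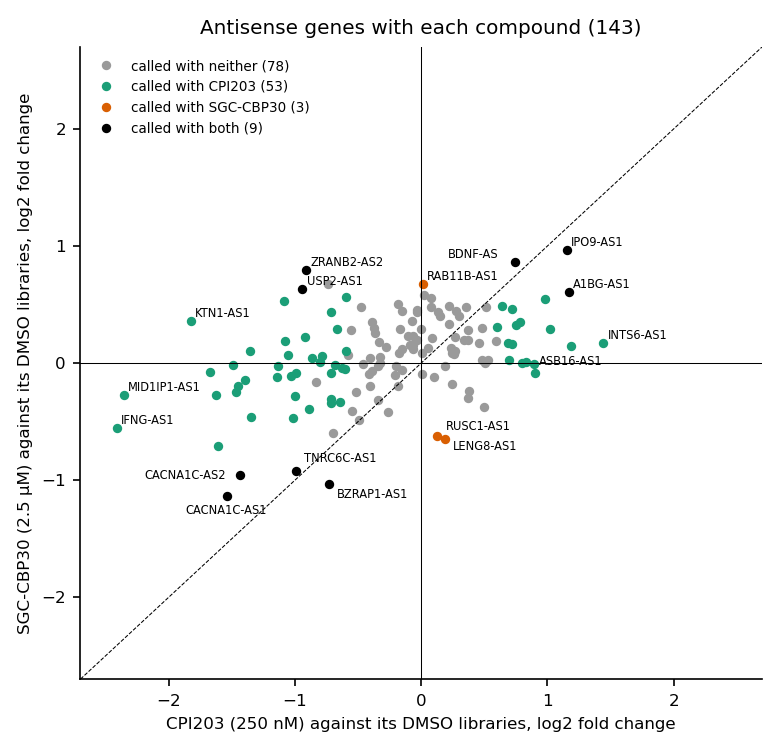
Log2 fold change of the 143 antisense genes with SGC-CBP30 (y axis) against that with CPI203 (x axis), each against its own DMSO libraries; the dashed line marks equal values and colors give the calls. Along the x axis values reach -2.41 and 1.44, and along the y axis -1.13 and 0.97.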

How the data were processed

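RNA-seq was made from LP-1 cells treated for 6 h, in 4 groups of 2 libraries. The paper calls them biological replicates, and the p-values measure the spread between these libraries. The authors deposited RPKM values per gene, made by their sequencing provider. The submitters' processing notes name TopHat 1.4.1, Cufflinks and hg19. Cufflinks shares reads of overlapping genes by a model. Strand handling is not given in the sources used here. The table holds 24 columns of other libraries, which were not used, and no columns of fold changes were used. Between 58.7% and 71.4% of low deposited RPKM values fell on whole reads (within 0.1 reads), so no counts were recovered and no count test was run.

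Members and lists were chosen with earlier results of these data known. Of 63129 rows, 14732 were tested, those without a missing value whose mean reached 1 RPKM. THAP9-AS1 (29.2 RPKM over 6 libraries) had no value in either CPI203 library and was not tested. limma 3.58.1 in R 4.3.3 (lmFit, contrasts.fit and eBayes with trend) was fitted to log2(RPKM + 0.1) over all 8 libraries with 4 group means, 4 residual and 5.48 prior degrees of freedom, and p-values (two-sided) were adjusted by Benjamini-Hochberg over all genes tested. Fold changes are on the log2(RPKM + 0.1) scale, which understates changes of low genes. The fit was also run on simulated data with independent noise. The outcome of that run is not given here and is not used as support for any result. Positions of genes within pairs were taken wholly within GENCODE release 29 and promoter windows from RefSeq GRCh38.p14, and were not mixed with the deposited hg19 positions.

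Named genes were, per compound, the 8 called genes with the largest rise and fall whose libraries did not overlap, the 6 most abundant, pairs called in opposite directions, the 6 with the smallest p for the difference between compounds, a list of known antisense genes, and those nearest the threshold. Of these, 1 gene is not reported here. Of that list TAPT1-AS1 (0.806 RPKM), HOXA-AS2 (0.147 RPKM) and GATA3-AS1 (0.00195 RPKM) were under the threshold and WT1-AS was at 0. Alternatives changed the pseudocount, the level filter, the scaling, the fold limit, the DMSO libraries, the replicate block and each library in turn.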

Additional observations from a re-analysis of the deposited data

Results flagged for a closer look

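The effect of SGC-CBP30 minus that of CPI203 was tested for each named antisense gene, and it passed the test at 1.5-fold for the 18 given here. The SGC-CBP30 effect was the higher, by a log2 difference of 2.19 for KTN1-AS1, 2.08 for MID1IP1-AS1, 1.86 for IFNG-AS1, 1.70 for ZRANB2-AS2, 1.60 for PRKCQ-AS1 and 1.57 for USP2-AS1. It was also higher for CTBP1-AS2 at 1.47, PXN-AS1 at 1.46, MAFG-AS1 at 1.35, ST3GAL6-AS1 at 1.25, VIM-AS1 at 1.14, MCM3AP-AS1 at 0.88 and NCBP2-AS2 at 0.64. It was the lower for INTS6-AS1 at -1.27, which reached 1 RPKM only through its CPI203 group, OSER1-AS1 at -1.04, ASB16-AS1 at -0.98, LENG8-AS1 at -0.84 and RUSC1-AS1 at -0.75. For LENG8-AS1 the adjusted p was 0.0495 and was between 0.0549 and 0.159 without single libraries in 6 of 8 cases. NCBP2-AS2 had 0.58 after median scaling, below 1.5-fold. With groups of 2 libraries no library could be tested as standing apart from its group.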

How the results depend on the processing

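Across the alternatives no named gene that was called changed direction. Of the 87 values of named genes and partners that were called, the alternatives gave 1371 values, of which 1297 kept the call and 74 lost it. Of 2373 alternative values of those not called, 28 gained a call. Depth and level limit the genes near 1 RPKM, where the added 0.1 RPKM and 1 library weigh most, and the doses and library series differ between the compounds.

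The counts of antisense genes called were 12 with SGC-CBP30, 62 with CPI203 and 50 for the difference. With all 4 DMSO libraries as controls SGC-CBP30 gave 5 and its partners 6 instead of 11. At a mean of at least 5 RPKM, where 52 antisense genes remain, the counts were 2, 19 and 24, and the SGC-CBP30 partners gave 6. With a pseudocount of 1 SGC-CBP30 gave 5, and its partners 5. With no minimum fold change it gave 49, its partners 57 and the CPI203 partners 91 instead of 32. Over all 14732 genes tested, 5945 then passed with SGC-CBP30 and 9459 with CPI203. At 2-fold the counts were 2, 26 and 22, with 1 and 12 partners. Apart from the setting without a fold limit, no share over all genes is given beside these alternative counts. They therefore do not show whether antisense genes still differ from all genes under those settings. The other noncoding classes together gave 9 with SGC-CBP30, 5 at 5 RPKM and 4 with a pseudocount of 1. Ratios without overlap, 70 and 93, were 30 and 37 of 44 pairs at 5 RPKM, with no count over other gene pairs beside them. These last 2 checks were chosen after seeing the data.

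Leaving out 1 library in turn gave between 9 and 14 with SGC-CBP30, 58 and 62 with CPI203, 43 and 52 for the difference, and 8 and 11 and 32 and 36 for the partners. The replicate numbers did not pair the libraries (correlation of deviations -0.096 and 0.0086), and with the replicate block the counts were 11, 62 and 49.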
